A study of Homo sapiens with 4 samples.

Results

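Homologous recombination copies an intact DNA molecule to mend a double-strand break, the Fanconi pathway clears crosslinks between DNA strands, and checkpoint kinases hold the cell cycle while both work. A list of 39 genes of these 3 systems was followed in the RNA-seq libraries of HCT116 cells, out of 58735 genes in the deposited tables, and each gene was found by its symbol. All 39 passed the filter on low expression, a mean of at least 1 FPKM over the libraries, which left 14523 genes for testing. FPKM is the number of fragments per kilobase of gene, scaled to the size of the library, so levels can be compared between genes. The genes are listed by name, and the rule that defines the list uses no expression value. They were chosen with earlier results of these data known, however, so counts and medians over the list are descriptions and carry no p-value.

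The study asked how KIF26B, a kinesin family gene placed downstream of the m6A methyltransferase METTL3, bears on colorectal cancer cells, and knocked it down to profile the transcriptome. HCT116 is an established colorectal carcinoma line with wild-type p53 and deficient mismatch repair. In 1 group, 2 libraries came from cells given a control siRNA, and in the other group, 2 libraries came from cells given siRNA against KIF26B; RNA was taken 48 h after transfection in both, and the labels name no further agent. The study used 2 KIF26B siRNAs in this line, and the column headers of the 2 KIF26B siRNA libraries carry different knockdown names. The labels do not say which KIF26B siRNA is in which library, nor whether the libraries came from separate cultures. The spread between libraries may be partly technical. Between the KIF26B siRNA libraries, a difference of siRNA and a spread of replicates cannot be told apart.

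In recombination, the MRE11-RAD50-NBN complex senses the break, nucleases such as EXO1 trim its ends, and BRCA1, PALB2 and BRCA2 prepare the exposed strand to invade the intact copy. In the Fanconi pathway a core ubiquitin ligase, together with the E2 enzyme UBE2T, adds ubiquitin to the FANCD2-FANCI pair at a crosslink. ATM and ATR are the kinases that signal breaks and stalled forks to the effector kinases CHEK2 and CHEK1. Many genes of these systems are transcribed mostly in S and G2 phase, when a sister chromatid is present.

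The libraries held 18068934 to 24673739 fragments by the divisors recovered from the FPKM steps, and a member gene had between 98 and 4075 reads in a library. KIF26B itself was nearly silent. It stood at 0.110 and 0.205 FPKM in the controls, from 31 and 73 reads, and at 0.140 and 0.0307 FPKM after KIF26B siRNA, from 43 and 8 reads. KIF26B siRNA replicate 1 thus lay between the controls and only replicate 2 lay below them. With so few reads, the level of the target in replicate 1 neither bears out its label nor goes against it. The study reports depletion of KIF26B by siRNA in this cell line. The words KIF26B siRNA name the label of a library below, not a measured loss of KIF26B, and summary results are given for each library so labelled as well as for both. Of 8 colon epithelial markers, 2 (VIL1 and LGR5) were below 1 FPKM in every library, and the summed level of the list was 1681 and 1696 FPKM in the controls against 1563 and 1590 FPKM after KIF26B siRNA. Of 6 stromal markers 5 were below 1 FPKM in every library, and COL1A1 made up nearly all of their sum, which was 7.30 and 7.15 FPKM in the controls and 4.87 and 8.76 FPKM after KIF26B siRNA. The 5 blood and endothelial markers found were all below 1 FPKM, with CD3E at 0 in every library and a sum of at most 0.252 FPKM. Mitochondrial genes took 6.90% and 6.91% of the recovered reads in the controls against 9.69% and 7.79% after KIF26B siRNA, and their part in the results was not tested.

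Expression of the 39 genes was on the whole lower after KIF26B siRNA. By sign of the fold change 33 genes were lower and 6 were higher, with a median log2 fold change of -0.29, against -0.01 over all genes tested. The median was -0.16 without KIF26B siRNA replicate 1 and -0.46 without replicate 2. In 23 genes both KIF26B siRNA libraries lay below both controls, where 27.8% of all genes tested did so, and in 2 genes, RAD50 and FANCF, both lay above, where 24.9% of all genes did so. The groups overlapped in the other 14. In bulk RNA, fewer cells in the phases that express these genes and less of their RNA per cell cannot be told apart. At an unadjusted p below 0.05 in limma, 12 genes were lower, against 8.68% of all genes tested, and 0 were higher, against 7.74%. In either direction 16.4% of all genes passed that threshold. The count of 12 and the share over all genes both changed when a library was left out, as given below. The median log2 fold change of the 39 genes was -0.33 without control replicate 1 and -0.30 without control replicate 2.

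None of the 39 genes passed the adjusted threshold of 0.05 (limma, Benjamini-Hochberg over all genes tested). The smallest adjusted p among them was 0.242, which was also the smallest of any gene in the tables, and 0 of the 14523 genes passed. None reached the thresholds of the study, an unadjusted p below 0.05 with a log2 fold change beyond 1 in size, which 0.606% of all genes met downwards and 0.813% upwards. On the recovered reads (limma-voom), 13 of the 39 were lower, with XRCC2 added, against 10.1% of all genes, and 0 were higher, against 7.77%; 0 passed after adjustment. With 2 libraries in each group an exact permutation test cannot give a two-sided p below 0.333, so the single-gene p-values rest on the spread that limma shares between genes.

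**Figure D1:**
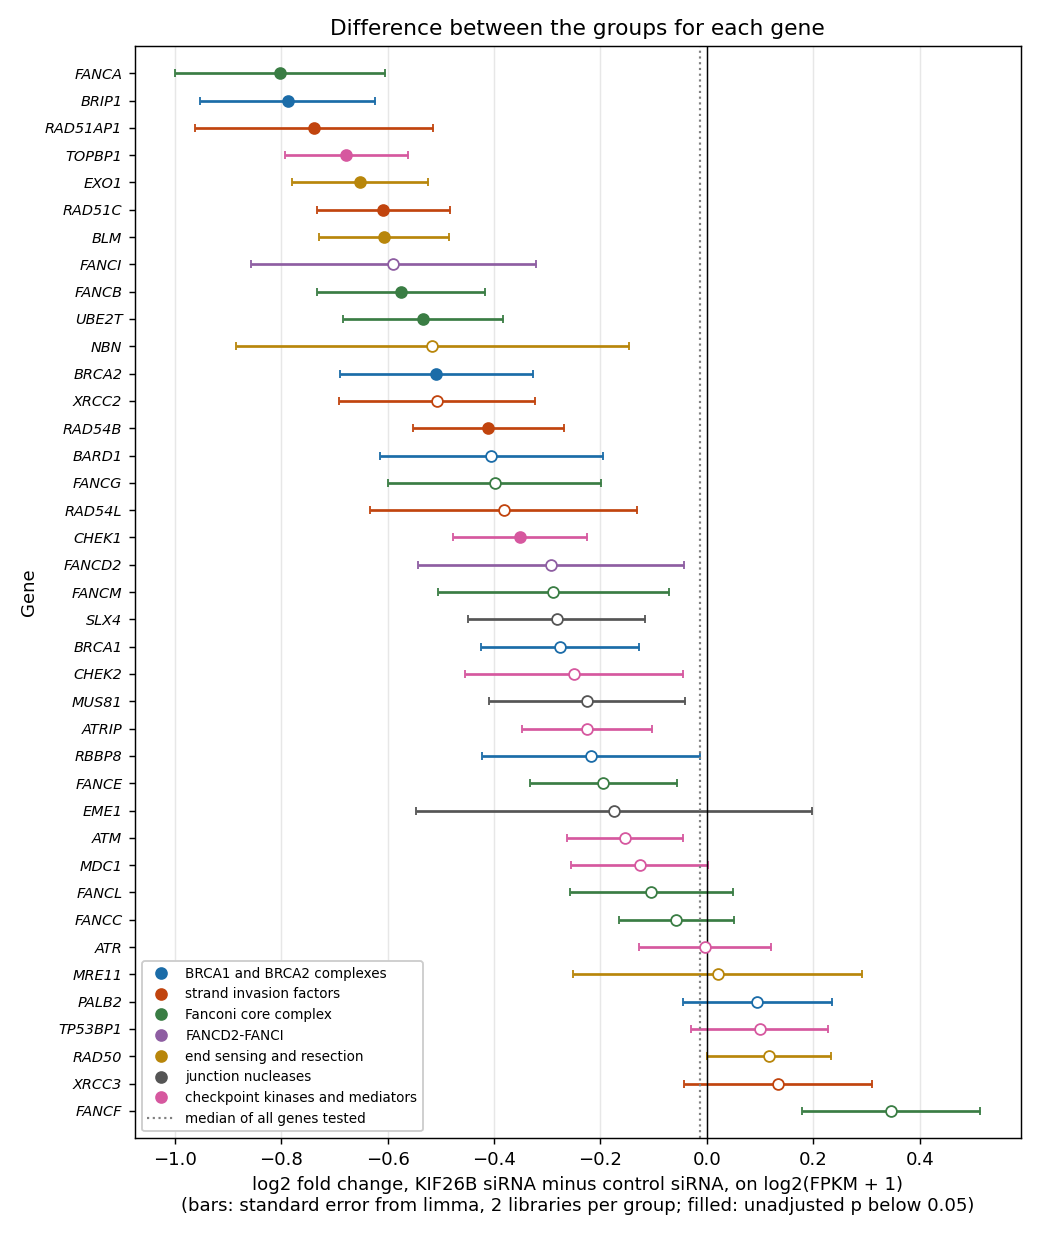
Log2 fold change of each of the 39 genes (KIF26B siRNA minus control siRNA, on log2(FPKM + 1)), with its standard error from limma, coloured by role and filled where the unadjusted p is below 0.05. The 12 filled points all lie to the left of 0, from FANCA at -0.80 to CHEK1 at -0.35, and the dotted line marks the median of all genes tested at -0.01.

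Promoters are shown for the 4 genes with the largest differences on log2(FPKM + 1) among those 12 (FANCA, BRIP1, RAD51AP1 and TOPBP1). Those of the 2 genes with the smallest mean differences of all (ATR and MRE11) are shown beside them. The small mean of MRE11 averages -0.33 in KIF26B siRNA replicate 1 and 0.37 in replicate 2, so MRE11 is not an unchanged gene. The place of TOPBP1 among the 4 depends on that scale, since FANCB had the larger difference with limma-voom (-0.80 against -0.74 for TOPBP1) and with a pseudocount of 0.1 (-0.76 against -0.73). Each is the 250 bases before the RefSeq transcription start in GRCh38.p14, written 5′ to 3′ on the strand of the gene: FANCA chr16:89816648-89816897, minus strand, BRIP1 chr17:61863529-61863778, minus strand, RAD51AP1 chr12:4538640-4538889, plus strand, TOPBP1 chr3:133661942-133662191, minus strand, ATR chr3:142578734-142578983, minus strand, and MRE11 chr11:94493845-94494094, minus strand. Capitals mark matches, on either strand, to an E2F motif (TTTCCCGC, TTTCGCGC, TTTGCCGC or TTTGGCGC), the CHR element TTTGAA of late cell cycle genes, the NF-Y box CCAAT, and the TEAD motif GGAATG.
FANCA: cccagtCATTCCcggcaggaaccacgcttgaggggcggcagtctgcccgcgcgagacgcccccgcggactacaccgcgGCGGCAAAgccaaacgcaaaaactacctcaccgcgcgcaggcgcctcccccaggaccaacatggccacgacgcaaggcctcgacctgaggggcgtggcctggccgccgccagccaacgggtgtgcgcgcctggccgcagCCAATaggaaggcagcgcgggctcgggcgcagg
BRIP1: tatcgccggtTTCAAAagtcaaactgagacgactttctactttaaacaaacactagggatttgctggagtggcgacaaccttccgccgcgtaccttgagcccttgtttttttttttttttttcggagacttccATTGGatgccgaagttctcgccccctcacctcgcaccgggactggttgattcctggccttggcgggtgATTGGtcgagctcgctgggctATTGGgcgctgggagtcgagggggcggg
RAD51AP1: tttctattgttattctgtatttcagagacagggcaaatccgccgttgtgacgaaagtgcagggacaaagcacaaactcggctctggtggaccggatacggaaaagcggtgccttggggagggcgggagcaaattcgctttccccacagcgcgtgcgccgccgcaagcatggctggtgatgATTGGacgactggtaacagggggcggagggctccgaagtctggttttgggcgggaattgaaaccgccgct
TOPBP1: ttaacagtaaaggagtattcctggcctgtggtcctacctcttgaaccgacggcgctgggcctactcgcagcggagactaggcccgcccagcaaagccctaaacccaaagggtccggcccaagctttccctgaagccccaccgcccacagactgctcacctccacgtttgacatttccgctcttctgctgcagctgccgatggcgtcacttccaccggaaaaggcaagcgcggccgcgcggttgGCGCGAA
ATR: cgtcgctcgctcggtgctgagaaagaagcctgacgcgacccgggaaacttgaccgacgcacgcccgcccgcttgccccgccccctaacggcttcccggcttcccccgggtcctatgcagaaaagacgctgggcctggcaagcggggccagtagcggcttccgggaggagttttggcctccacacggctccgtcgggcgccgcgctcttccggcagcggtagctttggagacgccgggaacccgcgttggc
MRE11: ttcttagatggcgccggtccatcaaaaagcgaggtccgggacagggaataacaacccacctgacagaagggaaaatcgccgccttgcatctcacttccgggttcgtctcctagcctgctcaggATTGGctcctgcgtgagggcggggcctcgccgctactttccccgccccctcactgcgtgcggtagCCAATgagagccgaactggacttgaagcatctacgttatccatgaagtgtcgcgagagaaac

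FANCA held 1 E2F match, 1 NF-Y box and 1 TEAD match, and the E2F match began at -172 from the start. In TOPBP1 an E2F match began at -7 and ran 1 base past the printed sequence. BRIP1 held 3 NF-Y boxes and 1 CHR element, RAD51AP1 held 1 NF-Y box, MRE11 held 2, and ATR held none of the motifs. These matches describe letters in a window and not binding.

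Of the 39 genes, 36 had a RefSeq promoter window of 300 bases, 250 before the start and 50 after it, and NBN, RAD54B and FANCI did not. An E2F match was present in 6 of the 36 windows, against 5.49% of the 9601 windows of tested genes and 3.32% of all 35116 windows. It was found in 3 of the 11 lower genes with a window (EXO1, FANCA and TOPBP1) and in 3 of the other 25 (FANCC, FANCD2 and XRCC2). NF-Y boxes were present in 18 of the 36, against 36.7% of tested and 34.6% of all windows, in 6 of the 11 lower genes and in 12 of the other 25. CHR elements were present in 5 of the 36, against 9.07% and 15.2%, and TEAD motifs in 5, against 10.4% and 14.0%. The median GC content of the windows was 64.3% for the listed genes and 66% for all tested genes.

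The BRCA1 and BRCA2 complexes counted 6 genes with a median log2 fold change of -0.34, which was -0.24 without KIF26B siRNA replicate 1 and -0.53 without replicate 2, and 2 of them were lower at an unadjusted p below 0.05. BRIP1, the helicase that binds BRCA1, stood at 6.28 and 6.26 FPKM in the controls and at 2.72 and 3.76 FPKM after KIF26B siRNA. Both libraries labelled KIF26B siRNA were well below both controls, which differed little from each other. Its log2 fold change was -0.79 ± 0.16 (SE; limma, unadjusted p = 0.00881, adjusted p = 0.242).

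BRCA2, which acts on the resected strand together with PALB2, stood at 3.01 and 3.36 FPKM in the controls and at 1.56 and 2.37 FPKM after KIF26B siRNA. The groups did not overlap, and replicate 1 was the lower of the pair labelled KIF26B siRNA. The log2 fold change was -0.51 ± 0.18 (limma, unadjusted p = 0.0482), close to the threshold. BRCA1 (log2 fold change -0.28 ± 0.15) and its partner in the ubiquitin ligase, BARD1 (-0.40 ± 0.21), were also lower in both libraries labelled KIF26B siRNA without passing the test. RBBP8, the CtIP protein that starts resection, and PALB2, the bridge between BRCA1 and BRCA2, overlapped between the groups, with log2 fold changes of -0.22 ± 0.20 and 0.09 ± 0.14.

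The strand invasion factors counted 6 genes with a median log2 fold change of -0.46, and 3 of them were lower at an unadjusted p below 0.05. Their median was -0.38 without KIF26B siRNA replicate 1 and -0.60 without replicate 2. RAD51AP1, which stimulates strand invasion, stood at 13.2 and 13.4 FPKM in the controls and at 6.06 and 9.37 FPKM after KIF26B siRNA. The libraries labelled KIF26B siRNA were both below the controls and differed from each other by more than the controls did. Its log2 fold change was -0.74 ± 0.22 (limma, unadjusted p = 0.0299).

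RAD51C, a recombination mediator that works in complexes with XRCC2 or XRCC3, stood at 9.05 and 9.63 FPKM in the controls and at 5.42 and 6.17 FPKM after KIF26B siRNA. Here both libraries labelled KIF26B siRNA were close together and below the controls, and the log2 fold change was -0.61 ± 0.12 (limma, unadjusted p = 0.00811). RAD54B, a DNA translocase of recombination, was among the lowest of the 39 genes, at 2.01 and 1.69 FPKM in the controls and 0.996 and 1.30 FPKM after KIF26B siRNA. The groups did not overlap, with a log2 fold change of -0.41 ± 0.14 (limma, unadjusted p = 0.0443), which was -0.70 with limma-voom and -0.65 with a pseudocount of 0.1.

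XRCC2 was lower in both libraries labelled KIF26B siRNA but missed the threshold narrowly (log2 fold change -0.51 ± 0.18, limma, unadjusted p = 0.0506), and in contrast to most of the list its lower library was replicate 2. RAD54L, the second translocase, had a log2 fold change of -0.38 ± 0.25 without overlap. XRCC3, which pairs with RAD51C, overlapped between the groups (log2 fold change 0.13 ± 0.18).

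The Fanconi core complex, here with its helper translocase FANCM and the E2 enzyme UBE2T, counted 9 genes with a median log2 fold change of -0.29 and 3 lower genes. The median was -0.16 without KIF26B siRNA replicate 1, -0.54 without replicate 2 and -0.19 without control replicate 2. FANCA, the core subunit whose gene is most often mutated in Fanconi anaemia, stood at 16.3 and 17.0 FPKM in the controls and at 7.61 and 10.9 FPKM after KIF26B siRNA. Its fold change on log2(FPKM + 1) was the largest of the 39 genes, -0.80 ± 0.20 (limma, unadjusted p = 0.0152), while BRIP1 had the larger one with limma-voom (-0.98 against -0.88 for FANCA) and with a pseudocount of 0.1 (-0.95 against -0.86). Both libraries labelled KIF26B siRNA were below the controls, at 45.8% and 65.4% of the control mean.

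UBE2T, the most highly expressed of the 39 genes, stood at 33.3 and 34.7 FPKM in the controls and at 20.9 and 25.8 FPKM after KIF26B siRNA. The groups were apart and the log2 fold change was -0.53 ± 0.15 (limma, unadjusted p = 0.0236). FANCB, which joins the ligase FANCL in the catalytic part of the core, stood at 3.02 and 4.04 FPKM in the controls and at 1.99 and 2.05 FPKM after KIF26B siRNA. In this gene the spread was in the controls, while the libraries labelled KIF26B siRNA nearly coincided (log2 fold change -0.58 ± 0.16, limma, unadjusted p = 0.0218).

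Of the other core genes, FANCG (log2 fold change -0.40 ± 0.20), FANCE (-0.19 ± 0.14) and FANCC (-0.06 ± 0.11) lay below the controls in both libraries labelled KIF26B siRNA without passing the test. FANCF, the adaptor subunit, went the other way, at 1.69 and 1.85 FPKM in the controls and 2.98 and 2.12 FPKM after KIF26B siRNA. Both libraries labelled KIF26B siRNA were above both controls, and the log2 fold change of 0.35 ± 0.17 did not pass (limma, unadjusted p = 0.107). The ligase subunit FANCL (log2 fold change -0.10 ± 0.15) and FANCM (-0.29 ± 0.22) overlapped between the groups. Within the core complex 6 of 9 genes thus lay below the controls, against 27.8% of all genes tested. In it 1 gene lay above them, against 24.9% of all genes, and 2 overlapped.

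The target of the ligase, FANCD2 and FANCI, had no gene past the test. FANCI, the second most highly expressed of the 39, stood at 18.4 and 18.9 FPKM in the controls and at 9.27 and 15.6 FPKM after KIF26B siRNA. Replicate 1 was at 49.7% of the control mean and replicate 2 at 83.7%, so the log2 fold change of -0.59 ± 0.27 was large for the list and still missed the threshold (limma, unadjusted p = 0.0925). FANCD2 overlapped between the groups, with a log2 fold change of -0.29 ± 0.25, and only replicate 1 was low.

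**Figure D2:**
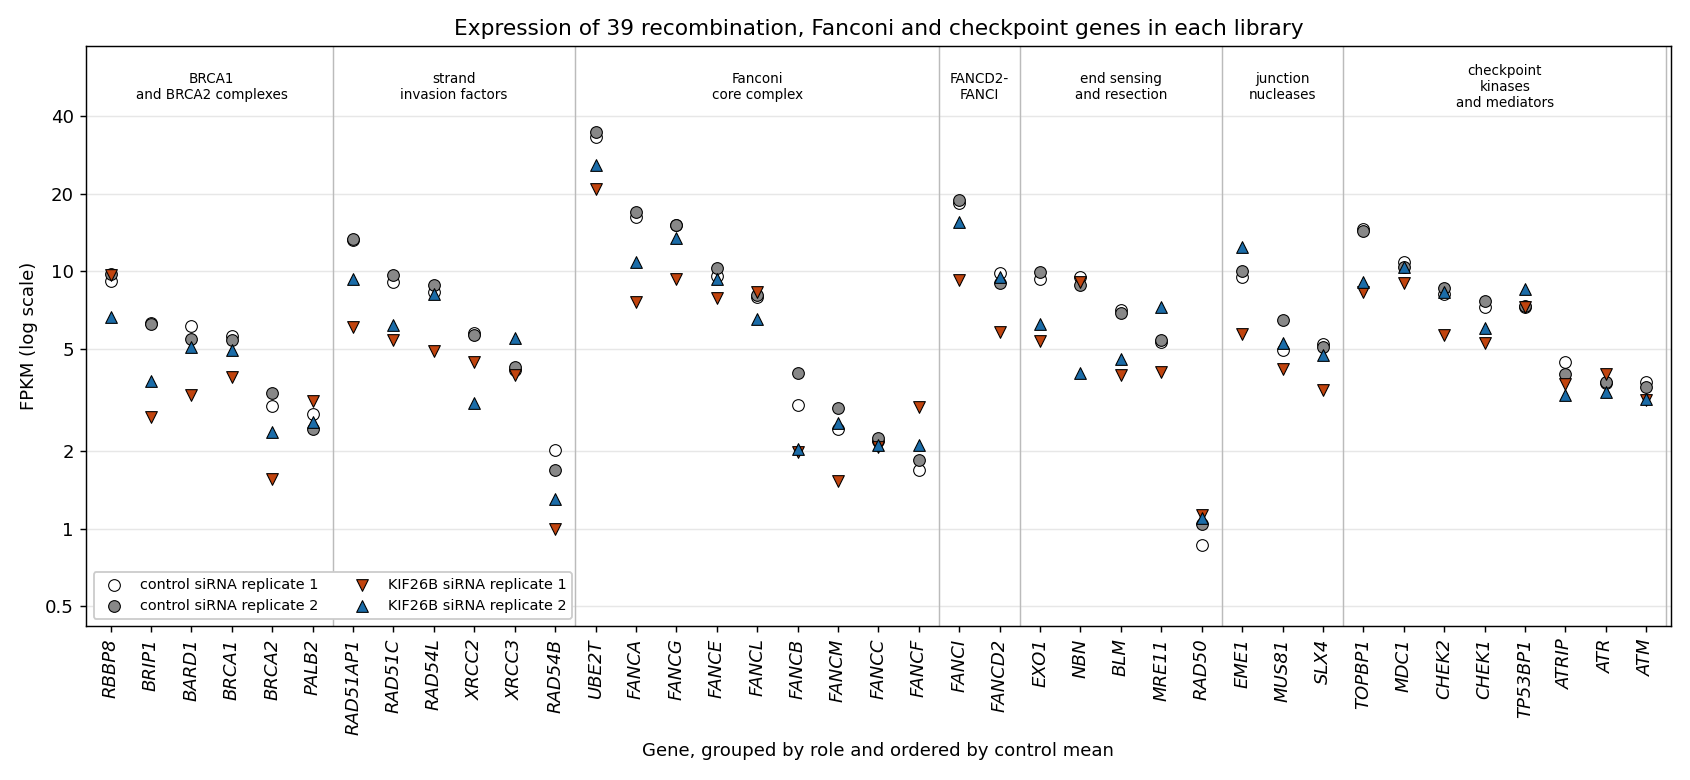
FPKM of each of the 39 genes in each of the 4 libraries on a log axis, grouped by role and ordered by the control mean. Circles are the control siRNA libraries and triangles the KIF26B siRNA libraries; in UBE2T, FANCA, BRIP1, EXO1, BLM and TOPBP1 both triangles lie below both circles, while in NBN, MRE11 and EME1 they lie far apart.

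The genes of end sensing and resection counted 5, with a median log2 fold change of -0.52, which was -0.33 without KIF26B siRNA replicate 2. EXO1, a nuclease of long-range resection, stood at 9.36 and 9.94 FPKM in the controls and at 5.37 and 6.22 FPKM after KIF26B siRNA. The BLM helicase, which unwinds DNA for resection and dissolves joint molecules, stood at 7.08 and 6.89 FPKM in the controls and at 3.96 and 4.54 FPKM after KIF26B siRNA. In both genes the groups were well apart, with log2 fold changes of -0.65 ± 0.13 for EXO1 (limma, unadjusted p = 0.00699) and -0.61 ± 0.12 for BLM (limma, unadjusted p = 0.00763).

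None of the 3 sensor genes passed the test. MRE11, the nuclease of the sensor complex, stood at 5.32 and 5.42 FPKM in the controls, below them at 4.06 FPKM in replicate 1 and above them at 7.25 FPKM in replicate 2. NBN, which recruits ATM to the complex, was at 9.51 and 8.84 FPKM in the controls, at 9.05 FPKM in replicate 1 and at 4.04 FPKM in replicate 2. The libraries labelled KIF26B siRNA were thus far apart in both genes, and in opposite senses, and the log2 fold changes were 0.02 ± 0.27 for MRE11 and -0.52 ± 0.37 for NBN.

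RAD50, the coiled-coil ATPase of the complex, was the lowest of the 39 genes, at 0.865 and 1.04 FPKM in the controls and 1.13 and 1.10 FPKM after KIF26B siRNA. Both libraries labelled KIF26B siRNA lay above the controls by a small margin (log2 fold change 0.12 ± 0.12). In the annotation, 76.9% of the exon bases of RAD50 are shared with a read-through gene on the same strand (ENSG00000283782), listed at a mean of 0.0225 FPKM, and 66.0% of those of RAD54B are shared with FSBP, listed at 0.0668 FPKM. How reads in shared exons were counted is not given in the sources used here, so the levels of these genes relative to the others are uncertain, and the part of the overlap was not tested.

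The junction nucleases, which cut joined DNA molecules, counted 3 genes with a median log2 fold change of -0.23 and none past the test. The median was -0.09 without KIF26B siRNA replicate 1, -0.46 without replicate 2 and -0.14 without control replicate 2. EME1, the partner of the MUS81 nuclease, stood at 9.46 and 9.99 FPKM in the controls, at 5.71 FPKM in replicate 1 and at 12.4 FPKM in replicate 2. It thus lay below the controls in one library labelled KIF26B siRNA and above them in the other, at 58.7% and 128% of the control mean, and its log2 fold change was -0.17 ± 0.37. MUS81 itself overlapped between the groups (log2 fold change -0.23 ± 0.18), and the scaffold SLX4 was lower in both libraries labelled KIF26B siRNA (-0.28 ± 0.17).

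The checkpoint kinases and mediators counted 8 genes with a median log2 fold change of -0.19, which was -0.12 without KIF26B siRNA replicate 1, and 2 lower genes, both on the ATR branch. TOPBP1, which switches on ATR, stood at 14.7 and 14.3 FPKM in the controls and at 8.29 and 9.09 FPKM after KIF26B siRNA. The libraries labelled KIF26B siRNA nearly agreed and were far below the controls, and TOPBP1 had the smallest unadjusted p of the 39 genes (log2 fold change -0.68 ± 0.12, limma, unadjusted p = 0.00426, adjusted p = 0.242). CHEK1, the effector kinase of ATR, stood at 7.25 and 7.66 FPKM in the controls and at 5.25 and 6.03 FPKM after KIF26B siRNA. Its groups did not overlap, with a log2 fold change of -0.35 ± 0.13 (limma, unadjusted p = 0.0488).

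ATR itself stood at 3.69 and 3.71 FPKM in the controls and at 3.99 and 3.40 FPKM after KIF26B siRNA, with the controls between the libraries labelled KIF26B siRNA and a log2 fold change of -0.00 ± 0.12. Its binding partner ATRIP was lower in both libraries labelled KIF26B siRNA (log2 fold change -0.23 ± 0.12) without passing the test. On the break branch, ATM (-0.15 ± 0.11) lay below the controls in both libraries labelled KIF26B siRNA, and CHEK2 (-0.25 ± 0.20), MDC1 (-0.13 ± 0.13), which binds phosphorylated H2AX, and TP53BP1 (0.10 ± 0.13), which limits resection, overlapped between the groups. None of these 4 passed the test, and whether the ATR and ATM branches differ was not tested.

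The levels of the 39 genes in control cells ran from 0.953 to 34.02 FPKM by the control mean, with 27 genes at 5 FPKM or more and 7 at 10 FPKM or more. The 3 highest were UBE2T, FANCI and FANCA, and the 3 lowest RAD50, FANCF and RAD54B. Over the 39 genes the log2 fold change and the control level had a Spearman rho of -0.49, and the log2 fold change and the gene length recovered from the FPKM steps a rho of 0.15. These values describe genes that share the same libraries, and on log2(FPKM + 1) the change of a low gene is understated.

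The KIF26B siRNA libraries differed from each other in the extent of the change. Replicate 1 was lower than replicate 2 in 30 of the 39 genes, where 52.7% of all genes tested were. The median difference from the control mean was -0.46 in replicate 1 and -0.16 in replicate 2 on the log2 scale, against -0.02 and -0.00 over all genes. Replicate 1 lay below both controls in 32 of the 39 genes, where 45.8% of all genes did, and replicate 2 in 27, where 44.8% did. The typical gene differed by 0.31 between the libraries labelled KIF26B siRNA and by 0.07 between the controls, and over all genes these medians were 0.28 and 0.07.

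The largest differences between the libraries labelled KIF26B siRNA were in EME1, at 58.7% of the control mean in replicate 1 and 128% in replicate 2, in NBN, at 98.6% and 43.99%, and in MRE11, at 75.6% and 135%. By contrast FANCB, FANCC, ATM and RAD50 differed by at most 0.03 on the log2 scale. Replicate 1, the library with the lower levels of most of the 39 genes, had 43 KIF26B reads against 31 and 73 in the controls. Counts this low do not show whether KIF26B was reduced in it. A link between the KIF26B level and the levels of the 39 genes was not tested.

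**Figure D3:**
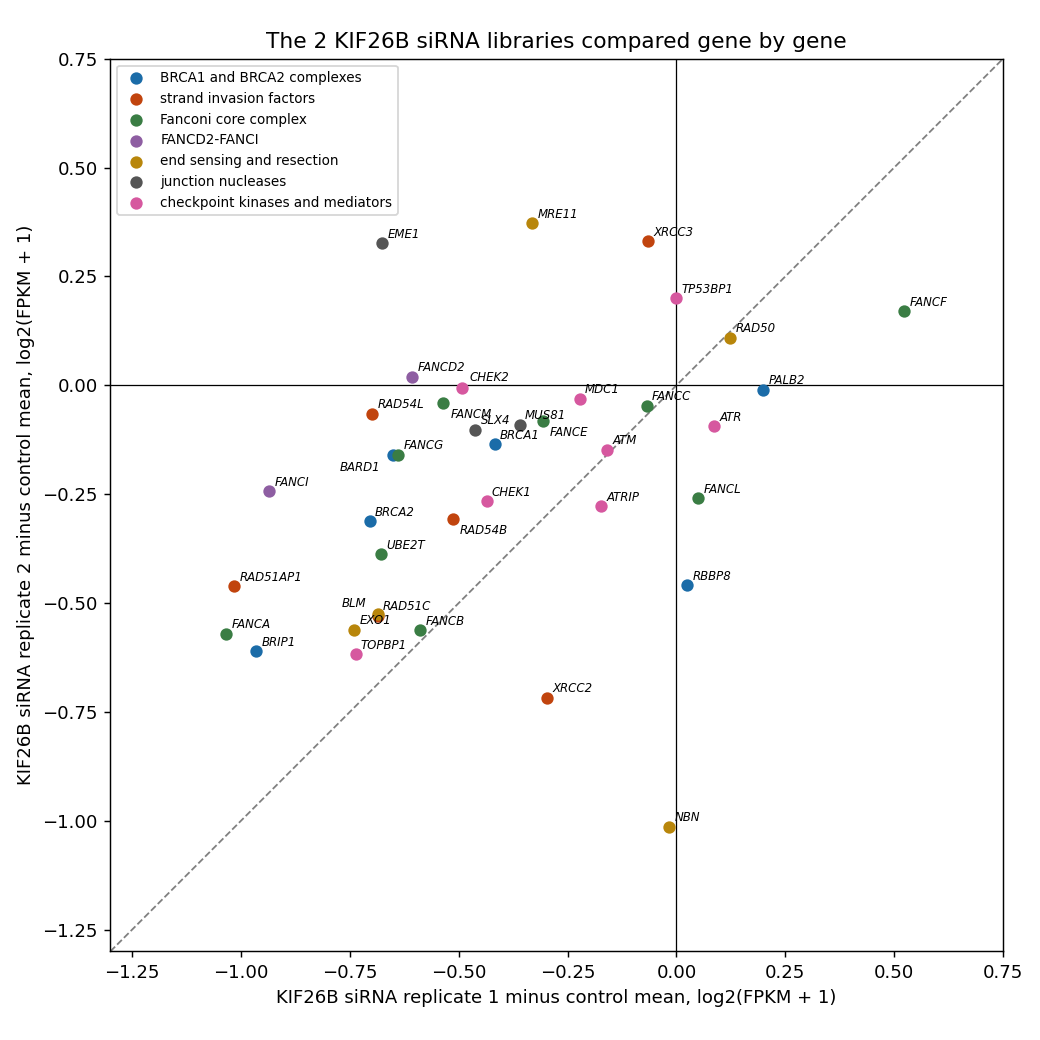
Difference of each KIF26B siRNA library from the control mean for the 39 genes, on log2(FPKM + 1), with replicate 1 on the horizontal and replicate 2 on the vertical axis, coloured by role. Most points lie above the dashed line of equal change, since replicate 1 was lower in 30 of 39 genes; NBN lies far below the line, and EME1 and MRE11 lie to the left of and above 0.

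Leaving out any library changed which genes passed. Without replicate 1, 15 of the 39 genes were lower at an unadjusted p below 0.05 (limma), against 23.7% of all genes tested, and 3 were higher, against 22.9%. In that fit 8 genes passed the adjusted threshold, against 17.3% of all genes: NBN, XRCC2, TOPBP1, BRIP1, FANCA, EXO1, BLM and RAD51AP1, all lower, with adjusted p (limma) from 0.0463 to 0.0490. Without replicate 2, 24 genes were lower, against 22.4% of all genes, and 0 passed after adjustment. Without control replicate 1 or 2, 0 of the 39 genes were lower at that threshold, against 1.67% and 1.61% of all genes, since the spread then comes from the pair labelled KIF26B siRNA. In the fits without a library labelled KIF26B siRNA the spread comes from the control pair alone and the lone library is assumed to vary as the controls do, although the libraries labelled KIF26B siRNA differed more from each other than the controls did.

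Other genes of the same systems were read from lists of their pathways. For comparison with the counts in these and the later lists, 8.68% of all genes tested were lower and 7.74% higher at that threshold in limma. A count of 0 in a short list is near those shares. Of 44 further recombination and Fanconi genes 41 were tested, and 11 were lower and 3 higher at an unadjusted p below 0.05, with a median log2 fold change of -0.17, which was -0.07 without KIF26B siRNA replicate 1. The lower genes with the largest changes were FIGNL1, an ATPase of recombination (-0.86 ± 0.11), MCM8, a helicase subunit (-0.84 ± 0.11), POLQ, the polymerase of theta-mediated end joining (-0.78 ± 0.15), and GEN1, a Holliday junction resolvase (-0.69 ± 0.11). ABRAXAS1 (0.52 ± 0.13), SFR1 (0.42 ± 0.13) and RAD52 (0.35 ± 0.12) were the higher genes. RAD51B, SLX1A and CENPS were below the filter and were not tested.

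Of 18 further checkpoint genes, 8 were lower and 0 higher, with a median of -0.33. H2AX, the histone variant phosphorylated at breaks, had a log2 fold change of -1.18 ± 0.22, the adaptor CLSPN, which links ATR to CHEK1, -0.99 ± 0.11, the phosphatase CDC25C -0.82 ± 0.27, and the kinase PKMYT1 -0.55 ± 0.19. Among 9 tested genes of non-homologous end joining, the pathway that joins ends without a template, 0 were lower and 0 were higher (median -0.18, or -0.12 with no filter on low values). In 5 of the 9 both KIF26B siRNA libraries lay below both controls, against 27.8% of all genes, and in 2 above, against 24.9%. With limma-voom 1 of the 9 was lower at an unadjusted p below 0.05. Of 5 mismatch repair genes tested 0 were lower and 0 higher (median 0.25, or 0.03 without KIF26B siRNA replicate 2 and 0.10 with no filter on low values). Of 12 nucleotide excision repair genes 0 were lower and 1 was higher, XPC (0.63 ± 0.12), and the median of 0.03 was near 0. Its sign turned with scaling by total reads and without KIF26B siRNA replicate 1, and leaving out another library moved it between 0.0037 and 0.060. None of the genes in these lists passed after adjustment, and differences between lists were not tested.

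Cell cycle genes were lower beside the 39 genes. All 28 genes of an S phase list had a negative log2 fold change, 15 of them at an unadjusted p below 0.05 and 0 higher, with a median of -0.44, and their summed level was 709 and 705 FPKM in the controls against 498 and 557 FPKM after KIF26B siRNA. MCM10 (-0.85 ± 0.11), RFC3 (-0.80 ± 0.11), MCM4 (-0.75 ± 0.11) and RFC4 (-0.61 ± 0.20) led that list. Of 15 mitotic genes 9 were lower and 0 higher, with a median of -0.75 (-0.47 without KIF26B siRNA replicate 1), led by MKI67 (-0.99 ± 0.13), and their summed level was 595 and 597 FPKM in the controls against 308 and 428 FPKM after KIF26B siRNA. As with the 39 genes, replicate 1 had the lower sum in both lists.

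Of 18 tested p53 targets 0 were lower and 4 higher, namely BBC3 (1.23 ± 0.23), XPC (also in the nucleotide excision repair list), CDKN1A (0.48 ± 0.14) and FDXR (0.42 ± 0.11), with a median of 0.24 and a summed level of 680 and 692 FPKM in the controls against 850 and 844 FPKM after KIF26B siRNA. The part of cell cycle phase in the levels of the 39 genes was not tested.

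**Figure D4:**
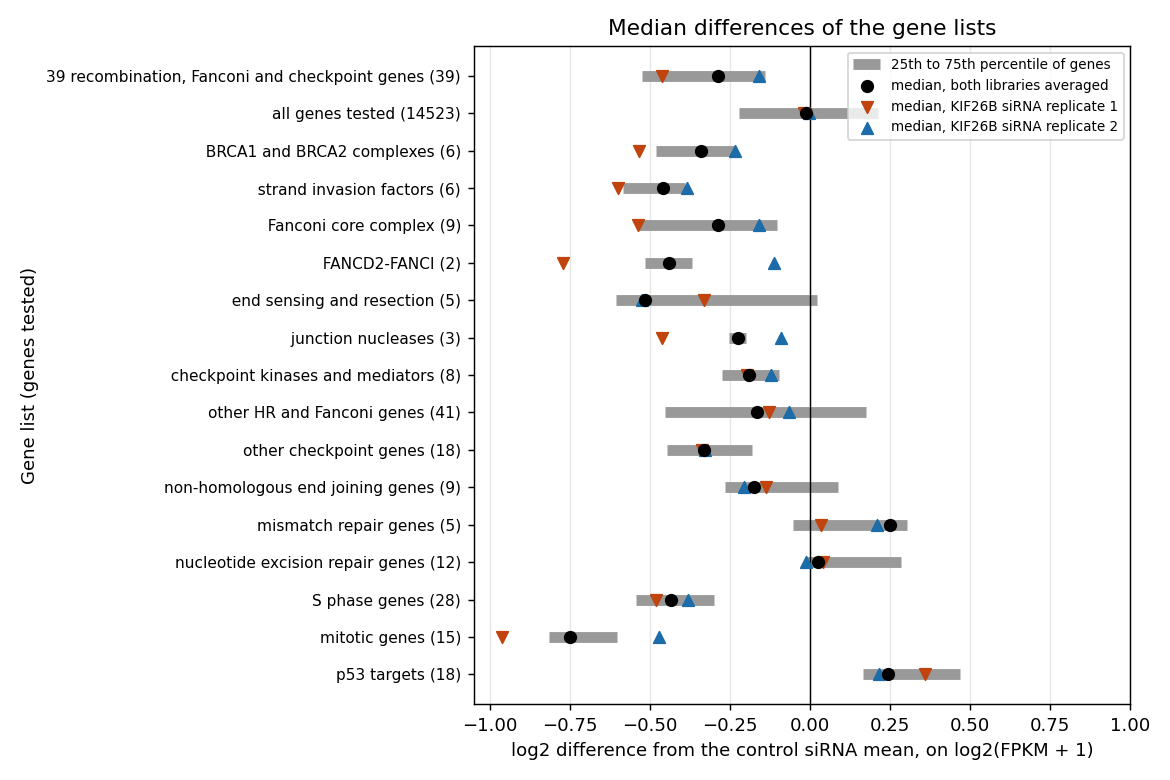
Median difference from the control siRNA mean for each list of genes, on log2(FPKM + 1), with the number of genes tested in brackets; bars span the 25th to 75th percentile of the fold changes of both libraries averaged, and triangles give each KIF26B siRNA library. The 39 genes have a median of -0.29, between the mitotic list at -0.75 and all genes tested at -0.01.

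In 26 of the 39 genes an exon overlaps an exon on the other strand in the annotation, and in 9 the partner had a mean of at least 5 FPKM, as with CFL1 beside MUS81 (109 FPKM), LRRC59 beside EME1 (55.3 FPKM) and KLC1 beside XRCC3 (5.31 FPKM, over 76.7% of the exon bases of XRCC3). Whether counting used the strand is not given in the sources used here, so reads within the shared bases cannot be assigned to 1 gene of a pair with certainty. The shared bases were 13.9% of the exon bases of MUS81 and 16.4% of those of EME1.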

How the data were processed

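mRNA purified with poly-T beads from total RNA of HCT116 cells was sequenced in 4 libraries, 2 per group. The deposited FPKM values were made by the authors; the notes of the submitters name HISAT2 2.0.5, featureCounts 1.5.0-p3 and build hg38, whereas the study's methods name hg19, and no coordinate enters an expression value; exon overlaps were read from the annotation below. Gene symbols came from GENCODE release 44 lifted to GRCh37, which named 56513 of 58735 identifiers. Testing was limited to genes whose mean reached 1 FPKM and was done on log2(FPKM + 1) with limma 3.58.1 in R 4.3.3 (empirical Bayes, Benjamini-Hochberg over 14523 genes). FPKM values were turned back into whole reads for 99.9942% of genes above 0 (tolerance 0.01 read), with divisors of 18068934 to 24673739 fragments. In KIF26B siRNA replicate 2 the recovered reads summed to 18968174, above its divisor of 18068934. In each other library the sum was below the divisor. Some recovered read numbers may thus be wrong. This bears on limma-voom, scaling by total reads and the mitochondrial shares. The recovered reads were tested with limma-voom as an alternative.

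The genes and lists were chosen with earlier results of these data known. Values in every library are given for genes with an unadjusted p below 0.05, for the 3 highest and 3 lowest control means and for the largest differences between KIF26B siRNA libraries; ATR was given in every library as well because its promoter is shown, and of other lists at most 4 genes are named by fold change. Some genes of the other lists are not reported here and were left out of the counts and medians of those lists. Promoter sequences are from RefSeq, GRCh38.p14, 1 window per gene, with the motifs searched on both strands. The fit had no block. Libraries of the same replicate number showed no shared shift (correlation of deviations -0.003). That value cannot show whether they were prepared as pairs. The test was checked on simulated data. Over all genes tested, the median difference was 0.28 between the KIF26B siRNA libraries and 0.07 between the controls. No conclusion on how the test behaves under such unequal spread is drawn from that check. Alternatives were the pseudocount, filter, scaling, variance trend, replicate block and leaving out each library.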

Additional observations from a re-analysis of the deposited data

How the results depend on the processing

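Without leaving out a library, the number of the 39 genes lower at an unadjusted p below 0.05 ran from 10 (pseudocount 0.1) to 13 (limma-voom), with 0 higher and 0 past the adjusted threshold in any, and the median log2 fold change ran from -0.36 to -0.28. BRCA2, CHEK1 and RAD54B, the genes nearest the threshold, were those lost: BRCA2 with the variance trend, without the filter and with the smaller pseudocount, CHEK1 with the smaller pseudocount, median-of-ratios scaling and the replicate block, and RAD54B with the variance trend and the replicate block, while the filter of 1 FPKM in every library left RAD54B untested. XRCC2 was gained with limma-voom, with the variance trend and with the filter of 1 FPKM in every library. The same filter left 37 of the 39 genes and 1 gene, FANCF, with both KIF26B siRNA libraries above the controls. With the replicate block 10 genes were lower, 0 higher and 0 past the adjusted threshold, and the smallest adjusted p of limma was 0.391. Whether the replicate numbers pair the libraries is not known.

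Leaving out each library in turn, the number of lower genes ran from 0 to 24, being 0 without either control, 15 without KIF26B siRNA replicate 1 and 24 without replicate 2 (FANCB was lost without either, RAD54B without replicate 1); the number of higher genes ran from 0 to 3, of genes past the study's thresholds downwards from 0 to 2, and of genes past the adjusted threshold from 0 to 8. Over all genes tested, in either direction, 524 and 499 passed an unadjusted p below 0.05 without control replicate 1 or 2, against 2385 with all libraries. The number without overlap ran from 26 to 32 downwards and from 2 to 6 upwards, where with 3 libraries, which overlap less easily, 33.8% to 45.8% of all genes did so downwards and at least 30.7% upwards; the median ran from -0.46 to -0.16.

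The sign of 9 genes turned in at least 1 alternative. MRE11 turned to -0.0019 with limma-voom and -0.018 with scaling by total reads, and ATR to 0.010 with median-of-ratios scaling. For the other turns, the value without KIF26B siRNA replicate 1 is followed by that without replicate 2. These were 0.37 and -0.33 for MRE11, -0.094 and 0.086 for ATR, -0.46 and 0.024 for RBBP8, and 0.33 and -0.064 for XRCC3. They were -0.26 and 0.049 for FANCL, 0.20 and -0.0014 for TP53BP1, -0.0097 and 0.20 for PALB2, 0.019 and -0.61 for FANCD2, and 0.33 and -0.68 for EME1. The cause of these changes, beyond the removal of a library, was not tested.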
